A study of Rattus norvegicus with 9 samples.

Results

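The genes described here are 10 genes of glucose uptake, glycolysis and the response to low oxygen, Slc2a1, Hk1, Hk2, Pfkl, Aldoa, Pgk1, Ldha, Pdk1, Bnip3 and Hif1a, in the endometrium of rats treated before and after mating. They were taken from the table of gene counts by symbol, with no cut on their measured values, and are 10 of its 22250 rows. The choice was made with earlier results of these data known. All 10 had 1 row each and enough counts to be tested. Poly-A selected RNA of female Sprague-Dawley rats, 10 weeks old, was sequenced in 9 libraries, 3 in each of 3 groups. The LER+LIG group received hydroxyurea by gavage at 450 mg/kg per day for 10 days and adrenaline under the skin at 0.3 mg/kg per day from day 4 to day 10. From day 0.5 of gestation it was gavaged daily with LIG, which the title of the series names ligustilide, at 40 mg/kg. The LER group received hydroxyurea and adrenaline at the same doses and olive oil after mating. The NER group received saline by both routes before mating and olive oil after it. Neither the day of tissue collection nor the number of rats behind each library was stated. The p-values therefore rest on the variation among these 9 libraries, which may be technical.

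Cells take up glucose through transporters of the Slc2a family, trap it as glucose-6-phosphate with a hexokinase and split it in glycolysis, which yields pyruvate and ATP. Pyruvate either enters the mitochondrion through pyruvate dehydrogenase or is reduced to lactate by lactate dehydrogenase. When oxygen is low, the transcription factor HIF-1, whose oxygen-sensitive subunit is the product of Hif1a, raises the transcription of many of these genes, while the HIF-1alpha protein itself is controlled mainly by breakdown and not by its mRNA. In the endometrium glucose is stored as glycogen in the epithelium and is used by the stroma when it decidualises around implantation.

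Total counts lay between 13241537 and 15354085 per library, and 14229 genes were tested. By the quasi-likelihood test of edgeR no gene passed a Benjamini-Hochberg adjusted p of 0.05 in any of the 3 comparisons. At an unadjusted p under 0.05 that test gave 1777 genes for LER+LIG against LER, 774 for LER+LIG against NER and 124 for LER against NER. DESeq2 called 349 genes (2.47%), 23 (0.163%) and 2 (0.0141%) in the same order at an adjusted p under 0.05, and none of the 10 genes in any of them. The libraries did not separate by group along the largest axis of variation. NER replicate 3 and LER+LIG replicates 2 and 3 lay at 71.3 to 84.5 on the first principal component, which held 44.4% of the variance, while the other 6 lay between -68.1 and -28.7. The same 3 libraries had the highest summed levels of 6 epithelial markers, at 1327 to 2468 CPM (counts scaled to library size) against 412 to 757 CPM in the others. Of these markers Krt8, Krt18, Krt19 and Cdh1 were each highest in those 3 libraries, while Epcam and Foxa2 were not. Every group held markers of epithelium, stroma, smooth muscle and endothelium. The trophoblast markers Prl3d1 and Gcm1 and the decidual prolactin gene Prl8a2 were at 0 in all 9 libraries. The other decidual markers on the list, Bmp2, Alpl and Hand2, were present in every library and summed to 65.5 to 114 CPM. The other trophoblast markers, Hand1 and Tpbpa, summed to at most 0.19 CPM. In bulk tissue of this kind, fewer cells of a type and less RNA per cell cannot be told apart.

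Levels per length of transcript, as the deposited FPKM (fragments scaled to transcript length and library size), put Ldha, Aldoa and Pgk1 first. Ldha averaged 411.5 ± 126 FPKM over the 9 libraries, Aldoa 232.6 ± 38.9 FPKM and Pgk1 137.1 ± 30.5 FPKM (SD, n = 9), and each lay above the next in 9 of 9 libraries. Below them the order was less clear. Hif1a averaged 39.7 ± 7.67 FPKM, Hk1 35.5 ± 10.9, Pfkl 33.0 ± 12.1, Bnip3 28.3 ± 10.7 and Slc2a1 21.5 ± 5.87 FPKM (SD, n = 9). Neighbours among these 5 changed places from library to library, since Hif1a lay above Hk1 in 4 of 9 libraries, Hk1 above Pfkl in 5, Pfkl above Bnip3 in 6 and Bnip3 above Slc2a1 in 6. By contrast Pdk1, at 13.6 ± 2.11 FPKM, lay below Slc2a1 and above Hk2, at 8.26 ± 4.04 FPKM, in 9 of 9 libraries. The counting software and its treatment of reads shared with pseudogene copies were not given in the sources used here. The levels of genes with close copies, such as Aldoa, Pgk1 and Ldha, carry that uncertainty.

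**Figure D1:**
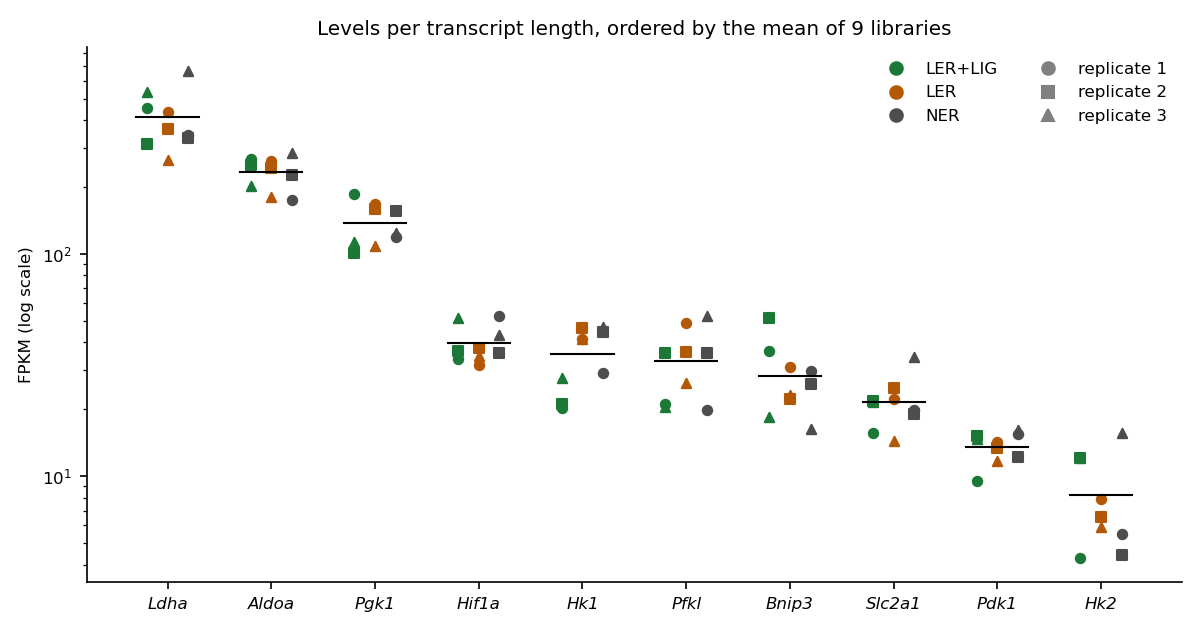
Deposited FPKM of the 10 genes on a log axis, ordered by their mean over 9 libraries; each point is a library, coloured by group and shaped by replicate number, and the bar is the mean. Ldha, Aldoa and Pgk1 stood apart from the rest at means of 411.5, 232.6 and 137.1 FPKM, and the 5 genes from Hif1a to Slc2a1 overlapped.

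The genes also differed in how much they varied. On the CPM scale, scaled by TMM (a correction for composition between libraries), the highest library was 3.77 times the lowest for Hk2, 2.95 times for Bnip3 and 2.76 times for Pfkl, but only 1.52 times for Pdk1 and 1.73 times for Hif1a. NER replicate 3 held the highest level of 6 of the 10 genes, which were Slc2a1, Hk1, Hk2, Pfkl, Ldha and Pdk1, and the lowest level of Bnip3. Within LER, Hk1 and Hif1a varied least, with coefficients of variation of 6.17% and 7.87%. Within NER, Hk2 and Pfkl varied most, at 76.3% and 48.0%, and NER replicate 3 was the highest library for both.

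**Figure D2:**
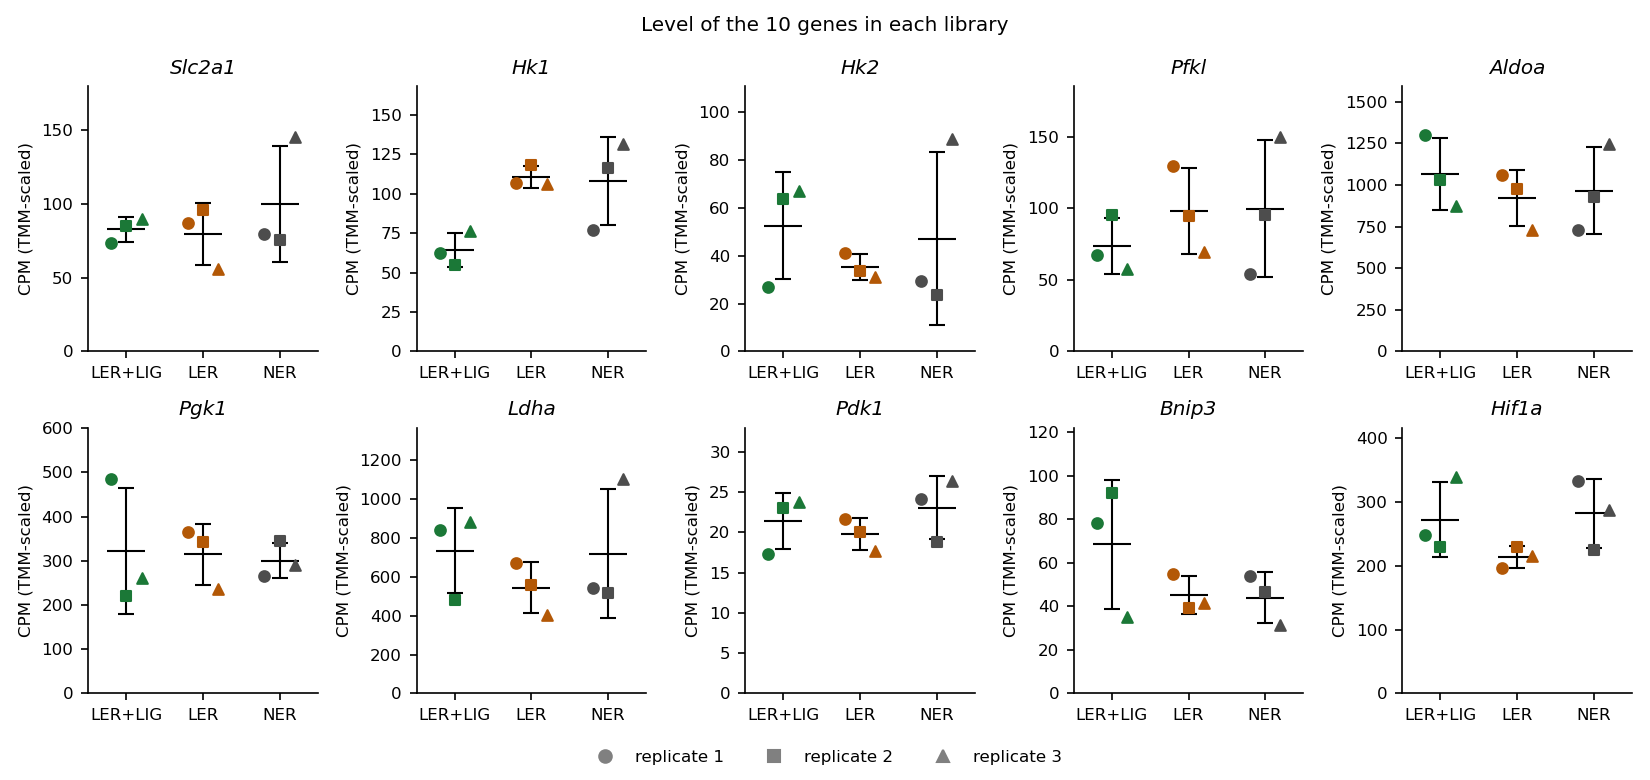
CPM (counts scaled to library size by TMM) of each gene in LER+LIG, LER and NER; points are single libraries, shaped by replicate number, and bars are the group mean and SD (n = 3). The 3 LER+LIG libraries lay below all 6 others for Hk1, at 54.9 to 76.2 CPM, while the groups overlapped for the other 9 genes.

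Slc2a1 encodes GLUT1, the transporter that carries glucose into most cells at a basal rate. It was at 73.2, 85.1 and 89.8 CPM in the LER+LIG libraries, against 86.9, 95.6 and 55.8 in the LER libraries and 79.3, 75.4 and 145 in the NER libraries. The groups overlapped, and the widest gap lay within NER, where replicate 3 stood above all other libraries. On the log2 scale the difference was 0.06 ± 0.30 for LER+LIG against LER and -0.33 ± 0.30 for LER against NER (SE, n = 3 each), with adjusted p of 0.951 and 1.00 by edgeR's quasi-likelihood test. Slc2a3, the transporter GLUT3, was at or below 0.619 CPM in every library, so the log2 ratio of Slc2a1 to Slc2a3 per length averaged 6.38 ± 1.19 in LER+LIG, 6.12 ± 0.52 in LER and 6.47 ± 0.73 in NER (SD, n = 3 each).

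The promoters of the genes were searched for ACGTG and its reverse complement CACGT in the 250 bases before each annotated start in RefSeq (build GRCr8). ACGTG is a form of the core of the hypoxia response element that HIF-1 binds. The form with G first, GCGTG, was not searched for. At least 1 window held ACGTG or CACGT for 6 of the 9 genes that had a window, against 18.1% of all 27457 genes with a window. Of all 33469 windows, 16.6% held a match. Those 6 genes were Slc2a1, Hk1, Aldoa, Ldha, Bnip3 and Hif1a. Neither ACGTG nor CACGT was in the windows of Hk2, Pfkl and Pdk1, which says nothing of GCGTG there. The genes were chosen as genes of glycolysis and the response to low oxygen, many of which HIF-1 raises. Their share may follow from that choice and is no test. A match of 5 letters is a description of the sequence, and binding was not measured. The Slc2a1 window (chr5:138002272-138002521, plus strand) is shown 5′ to 3′ in lower case with its match, which begins 51 bases before the start, in capitals.
Slc2a1: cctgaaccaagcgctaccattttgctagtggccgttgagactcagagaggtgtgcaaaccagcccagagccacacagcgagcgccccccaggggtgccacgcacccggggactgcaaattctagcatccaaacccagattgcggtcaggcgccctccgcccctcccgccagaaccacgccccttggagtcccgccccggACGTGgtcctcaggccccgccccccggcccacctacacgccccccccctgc

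Hk1 and Hk2 encode hexokinases. Both phosphorylate glucose and can bind to mitochondria. Hk1 is the widespread form, and Hk2 is the form that insulin and HIF-1 are known to induce. Hk1 was at 62.6, 54.9 and 76.2 CPM in LER+LIG, against 107, 118 and 107 in LER and 77.3, 116 and 131 in NER. All 3 LER+LIG libraries lay below all 3 LER and all 3 NER libraries, although LER+LIG replicate 3 came within about 1 CPM of NER replicate 1. Mean levels were 64.6 ± 10.8 CPM in LER+LIG, against 110.5 ± 6.82 in LER and 108 ± 27.9 in NER (SD, n = 3 each).

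The log2 fold change of Hk1 was -0.77 ± 0.23 for LER+LIG against LER (SE; 95% interval -1.30 to -0.25), which is 0.584 times the LER level. It did not pass the test, with an adjusted p of 0.355 by edgeR's quasi-likelihood test and 0.0785 by DESeq2. For LER+LIG against NER it was -0.75 ± 0.23, with an adjusted p of 0.868 by edgeR. Of all tested genes, 20.5% had groups that did not overlap for LER+LIG against LER and 8.27% for LER+LIG against NER, against 1 of the 10 genes in each, which was Hk1 both times. These comparisons share the LER+LIG libraries. At an unadjusted p under 0.05 the edgeR test gave 12.5% of all genes for LER+LIG against LER and 5.44% for LER+LIG against NER, and Hk1 was the only one of the 10 in either. In the authors' deposited table Hk1 had a log2 fold change of -0.79 for LER+LIG against LER, with an unadjusted p of 0.000923 from a test that is not named, and 14.9% of the genes in that table were under 0.05. LER and NER differed little in Hk1, with a log2 fold change of 0.03 ± 0.23 and a 95% interval of -0.50 to 0.55.

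Smooth muscle markers moved in part with Hk1. The summed level of 6 such markers was 17830, 9148 and 10510 CPM in LER+LIG replicates 1, 2 and 3, against 14290 to 19270 CPM in LER and 15950 to 20410 CPM in NER. LER+LIG replicate 1, whose sum lay within the ranges of LER and NER, had an Hk1 level of 62.6 CPM, below all LER and NER libraries. In that library Myh11 and Cnn1, at 2246 and 1103 CPM, also lay below all LER and NER libraries, while Acta2 and Tagln lay above them. Cnn1 lay below all LER and NER libraries in every LER+LIG library. The part of these markers in the Hk1 levels was not tested. With NER replicate 3 and LER+LIG replicates 2 and 3 left out together, the log2 fold change of Hk1 for LER+LIG against LER was -0.85. That fit rests on 1 LER+LIG library, assumed to vary like the others.

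Hk2 varied in another way. It was at 26.8, 63.7 and 66.9 CPM in LER+LIG, against 41.3, 33.6 and 30.9 in LER and 29.4, 23.5 and 88.5 in NER. The groups overlapped, and 1 NER library was higher than all LER+LIG libraries. Its log2 fold change was 0.57 ± 0.52 for LER+LIG against LER and -0.42 ± 0.52 for LER against NER (SE), with adjusted p of 0.662 and 1.00 by edgeR's quasi-likelihood test.

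The 3 libraries with the most Hk2 were the 3 with the highest sum of 6 epithelial markers. Krt8, Krt18, Krt19 and Cdh1 were each highest in those 3 libraries, but Epcam and Foxa2 were not. Epcam was at 228 CPM in LER+LIG replicate 3, against 336 and 319 CPM in LER replicates 1 and 2. Foxa2 was lowest in LER+LIG replicate 2, at 6.74 CPM. The 6 epithelial markers summed to 423, 1622 and 1327 CPM in LER+LIG, against 757, 752 and 456 in LER and 412, 533 and 2468 in NER. The part of these markers in the Hk2 levels was not tested. With those 3 libraries left out, Hk2 gave a log2 fold change of -0.43 for LER+LIG against LER and 0.41 for LER against NER, the opposite sign in both.

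Per length of transcript, Hk2 made up 17.4%, 35.3% and 29.7% of the summed FPKM of Hk1, Hk2 and Hk3 in LER+LIG, 16.0%, 12.3% and 12.5% in LER, and 15.8%, 8.96% and 23.9% in NER. Every LER+LIG library thus lay above every LER library, the nearest pair being 17.4% and 16.0%, while NER replicate 3 lay within the LER+LIG range. The log2 ratio of Hk2 to Hk1 differed by 1.26 between LER+LIG and LER. The exact two-sided permutation test gave p = 0.1, the smallest that 3 against 3 libraries allow, and 0.9 after Benjamini-Hochberg adjustment over 9 ratio tests. Against NER the difference was 1.02, with an exact permutation p of 0.2. Hk3, a hexokinase of white blood cells, made up at most 4.32% and was highest in NER replicate 3, at 18.4 CPM. That library also had the highest sum of 6 macrophage markers, at 831 CPM, against 235 to 679 CPM in the others.

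**Figure D3:**
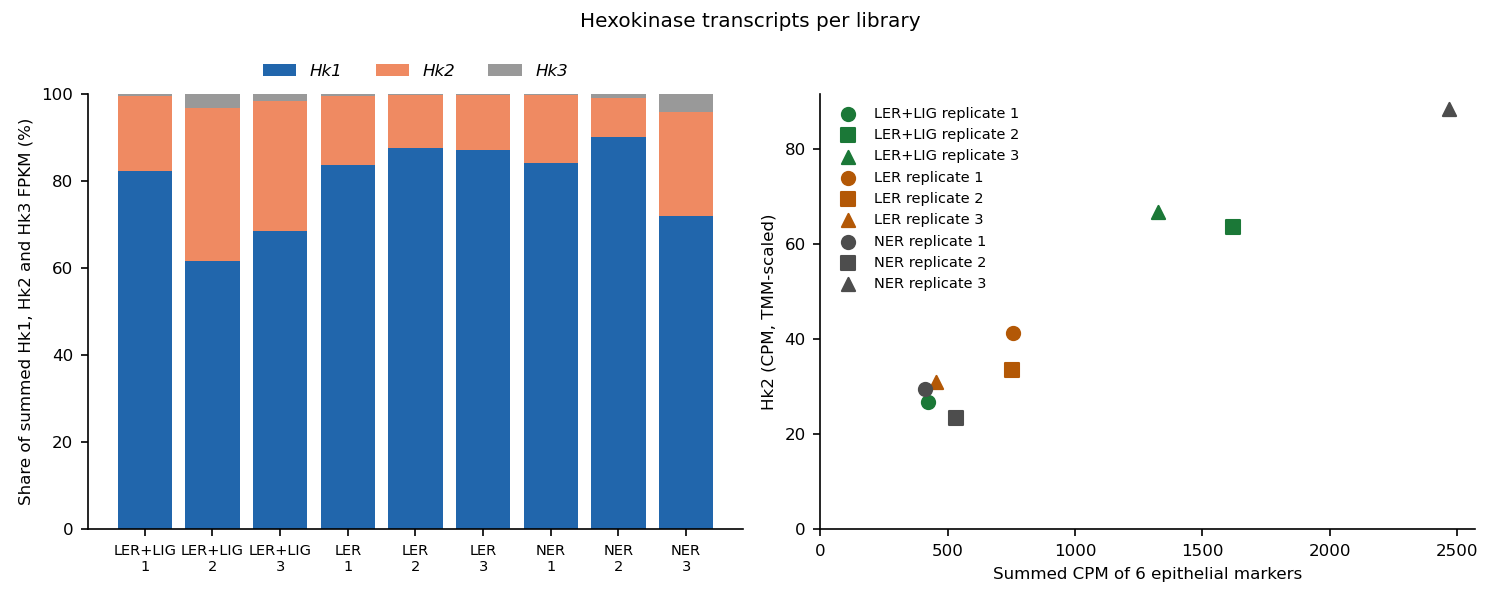
Left, the share of Hk1, Hk2 and Hk3 in their summed FPKM (%) in each library, in the order LER+LIG, LER, NER. Right, Hk2 (CPM) against the summed CPM of 6 epithelial markers in the same 9 libraries; NER replicate 3 and LER+LIG replicates 2 and 3 were highest on both axes.

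The promoters of both hexokinase genes are shown because Hk1 was the only one of the 10 genes whose groups did not overlap, and Hk2 is the family member known as a HIF-1 target. Hk1 has 2 annotated starts on the minus strand of chromosome 20. The windows before them are chr20:30842073-30842322 (window 1) and chr20:30874815-30875064 (window 2). Window 1 held 1 match to ACGTG, in capitals, 245 bases before its own start, and window 2 held none. Hk2 (chr4:116841276-116841525, minus strand) held none.
Hk1 window 1: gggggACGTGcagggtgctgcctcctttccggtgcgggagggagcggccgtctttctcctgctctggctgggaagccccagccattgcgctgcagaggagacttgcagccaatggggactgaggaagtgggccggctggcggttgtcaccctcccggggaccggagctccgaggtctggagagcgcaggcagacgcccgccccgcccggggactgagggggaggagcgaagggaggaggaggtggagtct
Hk1 window 2: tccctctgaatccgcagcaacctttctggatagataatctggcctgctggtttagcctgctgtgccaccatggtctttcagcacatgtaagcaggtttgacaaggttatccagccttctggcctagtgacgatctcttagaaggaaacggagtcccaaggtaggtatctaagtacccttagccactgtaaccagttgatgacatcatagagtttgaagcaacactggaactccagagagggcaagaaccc
Hk2: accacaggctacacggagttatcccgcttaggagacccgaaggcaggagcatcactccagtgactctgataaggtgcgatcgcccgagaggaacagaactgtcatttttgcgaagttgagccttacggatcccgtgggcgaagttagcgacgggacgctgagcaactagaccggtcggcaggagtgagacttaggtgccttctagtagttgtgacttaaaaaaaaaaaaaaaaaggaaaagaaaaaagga
Window 1 of Hk1 was 70.0% G or C, against 48.8% in its window 2 and 49.6% in the Hk2 window.

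Pfkl encodes the liver-type subunit of phosphofructokinase, the enzyme of the committed step of glycolysis. Its levels were 67.1, 95.3 and 57.8 CPM in LER+LIG, against 130, 94.4 and 69.8 in LER and 54.2, 95.5 and 149.7 in NER. NER alone spanned the whole range of the 9 libraries. Its log2 fold change was -0.42 ± 0.38 for LER+LIG against LER and -0.03 ± 0.38 for LER against NER (SE). Among the 3 phosphofructokinase genes Pfkp, the platelet type, held the largest share of summed FPKM in all libraries but LER+LIG replicate 2 and LER replicate 1, with means of 51.6% ± 13.1 in LER+LIG, 51.3% ± 7.77 in LER and 57.7% ± 7.25 in NER (SD, n = 3 each). Pfkl held 35.5% ± 10.8, 37.0% ± 9.02 and 32.4% ± 7.37 in LER+LIG, LER and NER.

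Aldoa, the aldolase that splits fructose-1,6-bisphosphate, was at 1299, 1028 and 871 CPM in LER+LIG, against 1058, 975 and 731.5 in LER and 728, 926 and 1243 in NER. Of the summed FPKM of Aldoa and Aldoc, Aldoa made up 97.7% to 99.6% over the 9 libraries. Pgk1, which makes the first ATP of glycolysis, was at 485, 219.9 and 262 CPM in LER+LIG, against 365, 342 and 235 in LER and 266, 344 and 290.4 in NER. The 3 LER+LIG libraries held both its highest and its lowest level. Log2 fold changes of Aldoa and Pgk1 lay between -0.07 and 0.21 in the 3 comparisons, with SEs of 0.28 and 0.32.

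Ldha encodes the A subunit of lactate dehydrogenase, the form that favours the making of lactate. It was at 839.5, 481 and 880.4 CPM in LER+LIG, against 669.7, 557 and 406 in LER and 541, 515 and 1102 in NER. The lowest library of each group lay between 406 and 515 CPM, and the groups overlapped. Differences on the log2 scale were 0.43 ± 0.38 for LER+LIG against LER and -0.40 ± 0.38 for LER against NER (SE), with adjusted p of 0.649 and 1.00 by edgeR's quasi-likelihood test. Ldhb, the B subunit, ran against it in some libraries. The log2 ratio of Ldha to Ldhb per length was 3.60 in LER+LIG replicate 3 and 4.12 in NER replicate 3, 0.49 in LER+LIG replicate 2, and between 0.77 and 1.72 in the other 6. Group means were 1.94 ± 1.57 in LER+LIG, 1.34 ± 0.49 in LER and 2.18 ± 1.68 in NER (SD, n = 3 each), and exact two-sided permutation tests gave p of 0.6 to 0.8 for the 3 pairs of groups.

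The Ldha window (chr1:106507842-106508091, plus strand) is shown because it held the motif in a pair of places. CACGT and ACGTG overlap in the palindrome CACGTG, which counts as 2 matches and begins 87 bases before the start, and CACGT recurs 73 bases before the start. Capitals mark these letters. Bnip3 and Hif1a also held CACGTG.
Ldha: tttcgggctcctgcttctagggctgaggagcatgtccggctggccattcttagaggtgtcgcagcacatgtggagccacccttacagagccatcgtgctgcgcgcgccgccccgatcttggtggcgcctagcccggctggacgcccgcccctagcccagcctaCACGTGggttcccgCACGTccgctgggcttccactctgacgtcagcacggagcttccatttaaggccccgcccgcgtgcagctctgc

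Pdk1 encodes a kinase that inhibits pyruvate dehydrogenase and so keeps pyruvate out of the mitochondrion. It had the narrowest range of the 10 genes, at 17.4, 23.1 and 23.7 CPM in LER+LIG, against 21.7, 20.1 and 17.7 in LER and 24.1, 18.8 and 26.4 in NER. The 95% interval of the log2 difference was -0.43 to 0.65 for LER+LIG against LER and -0.76 to 0.32 for LER against NER, so a change of 2-fold in either direction lay outside both.

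Bnip3, a HIF-1 target whose product sits on the outer mitochondrial membrane and marks mitochondria for removal, was at 78.0, 92.2 and 35.0 CPM in LER+LIG, against 55.0, 39.2 and 41.3 in LER and 53.9, 46.8 and 31.2 in NER. LER+LIG replicates 1 and 2 stood above all other libraries and LER+LIG replicate 3 was lower than all but NER replicate 3. Log2 fold changes were 0.60 ± 0.36 for LER+LIG against LER, 0.64 ± 0.36 for LER+LIG against NER and 0.04 ± 0.36 for LER against NER (SE). The first of these had an adjusted p of 0.511 by edgeR's quasi-likelihood test and the second 0.868. Without LER+LIG replicate 2 the values were 0.30 against LER and 0.34 against NER, and without LER+LIG replicate 3 they were 0.91 and 0.95.

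LER+LIG replicates 1 and 2 were also the 2 libraries with the highest sums of 6 neutrophil markers. Those sums were 73.9, 121 and 45.8 CPM in LER+LIG, against 55.8, 12.5 and 15.0 in LER and 25.0, 43.2 and 40.6 in NER. S100a8, S100a9 and Cxcr2 were each highest in LER+LIG replicates 1 and 2. Csf3r was at 11.3 CPM in LER+LIG replicate 1, below LER+LIG replicate 3 and NER replicate 3, at 29.1 and 29.8 CPM. Mpo was highest in LER replicate 1, at 26.7 CPM, and Mmp8 was higher there than in LER+LIG replicate 1. LER+LIG replicate 2 had the lowest sum of 6 stromal markers, 7170 CPM, against 25700 to 40470 CPM in the other 8 libraries. Most of these sums was Col1a1 and Col3a1, at 2073 and 1840 CPM in LER+LIG replicate 2, and these and Lum were lowest there. Pdgfrb, at 358 CPM, was highest in that library, and Pdgfra and Dcn lay within the range of the others. The part of these markers in the Bnip3 levels was not tested. With NER replicate 3 and LER+LIG replicates 2 and 3 left out together, which leaves 1 LER+LIG library, Bnip3 had a log2 fold change of 0.76 for LER+LIG against LER.

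Hif1a was at 249, 228.5 and 339 CPM in LER+LIG, against 196, 230 and 215 in LER and 333, 225 and 288 in NER. LER replicates 1 and 3 lay below all LER+LIG and NER libraries, and LER replicate 2 lay just inside the range of both. The fit gave a log2 fold change of -0.40 ± 0.23 for LER against NER, with a 95% interval of -0.93 to 0.13, and 0.35 ± 0.23 for LER+LIG against LER, with an interval of -0.18 to 0.88. Neither passed the test, with adjusted p of 1.00 and 0.553 by edgeR's quasi-likelihood test. The comparison of LER+LIG with NER gave -0.05 ± 0.23.

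**Figure D4:**
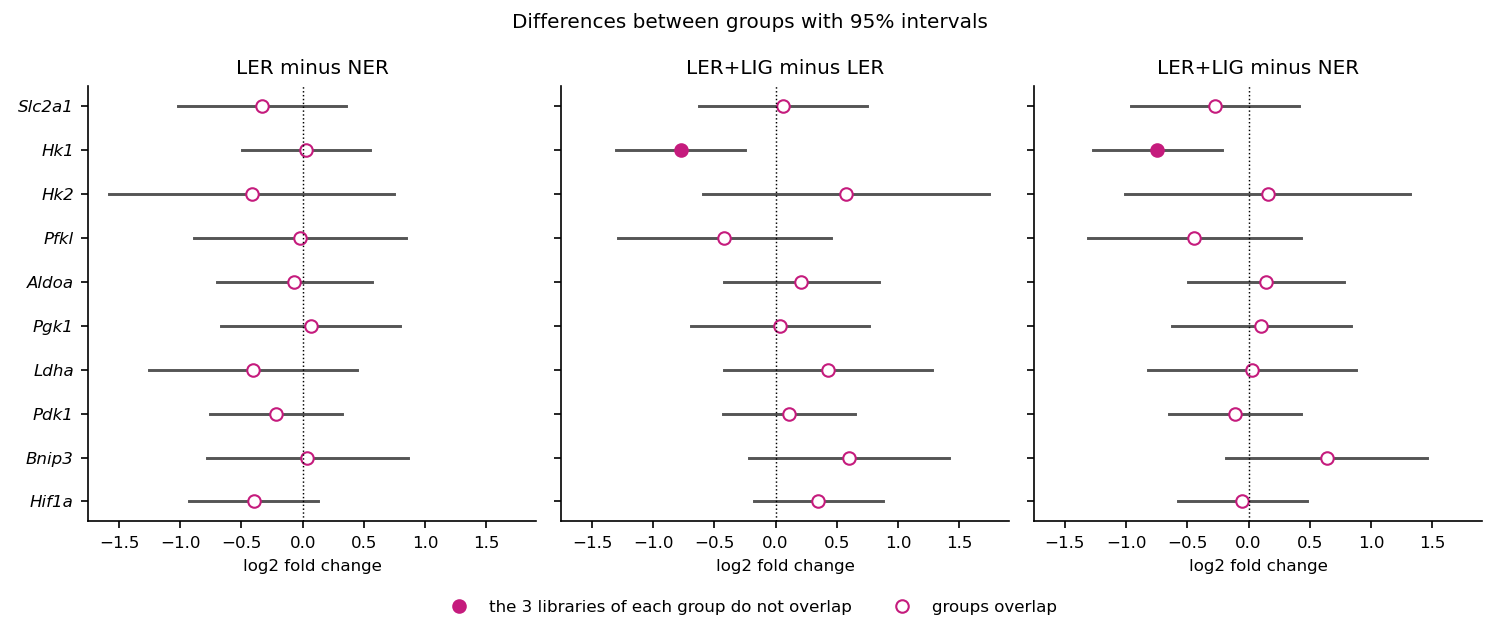
Log2 fold changes of the 10 genes from edgeR with 95% intervals for LER against NER, LER+LIG against LER and LER+LIG against NER; filled points are genes whose groups did not overlap in CPM. Hk1 is the only filled point, at -0.77 and -0.75, and its intervals alone exclude 0.

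Across the 10 genes none was called in any comparison, against 0% of all genes by edgeR in each of them. For LER against NER, 3 of the 10 had a log2 fold change above 0 and 7 below, with a median of -0.14, against 47.1% of all genes above 0 and a median of -0.02 over all genes tested. In that comparison 0 of the 10 had an unadjusted p under 0.05, against 0.871% of all genes, and 0 had groups that did not overlap, against 7.15%. For LER+LIG against LER, 8 were above 0 and 2, Hk1 and Pfkl, were below, with a median of 0.16, against 54.9% above 0 and a median of 0.07 over all genes. For LER+LIG against NER, 5 were above and 5 below, with a median of -0.01, against 53.7% of all genes above 0 and a median of 0.04. The first 2 comparisons share the LER libraries.

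Much of the LER against NER pattern came with 1 library. Leaving out NER replicate 3 gave log2 fold changes of 0.04 for Slc2a1, 0.41 for Hk2, 0.39 for Pfkl, 0.16 for Aldoa and 0.04 for Ldha, against -0.33, -0.42, -0.03, -0.07 and -0.40 with it. Hif1a and Pdk1 stayed below 0 whichever library was left out, at -0.54 to -0.26 and -0.35 to -0.11.

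Other genes of the same processes were read in 10 lists, of which 131 of 136 entries matched a row of the table. No list gene was called by edgeR in any comparison. For LER+LIG against LER the smallest adjusted p was 0.334, shared by Ugp2 and Pc. Ugp2 makes UDP-glucose, the building block of glycogen, and was at 233, 149 and 143 CPM in LER+LIG, against 79.3, 81.0 and 84.4 in LER and 101.5, 84.6 and 105 in NER. All 3 LER+LIG libraries lay above all others, and the log2 fold change was 1.10 ± 0.23 against LER and 0.85 ± 0.23 against NER (SE). Pc, the pyruvate carboxylase that feeds the citric acid cycle and gluconeogenesis, was at 46.7, 29.3 and 25.4 CPM in LER+LIG, against 185, 80.8 and 72.4 in LER and 77.5, 68.5 and 48.2 in NER. Its LER+LIG libraries lay below all others, and the log2 fold change against LER was -1.74 ± 0.41 (SE). It was -1.20 without LER replicate 1, the library with the most Pc, whose 5 adipocyte markers summed to 558 CPM, against 2.28 to 82.1 CPM in the other 8. The part of these markers in the Pc level was not tested. DESeq2 called both against LER, with adjusted p of 0.00551 for Ugp2 and 0.00853 for Pc, where it called 2.47% of all genes.

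Of 10 tested genes of glycogen metabolism, 6 had a log2 fold change above 0 for LER+LIG against LER, and 4 had an unadjusted p under 0.05, all 4 of them above 0, against 7.21% of all genes on that side. The other 4 lay below 0, and the log2 fold changes of the list ran from -0.975 to 1.83. Besides Ugp2, Gyg1, the protein primer of glycogen, had a log2 fold change of 1.00 ± 0.34 and groups that did not overlap, and 0.51 without LER+LIG replicate 2. Pygl, a phosphorylase that breaks glycogen down, had a log2 fold change of 1.81 ± 0.755 by DESeq2 (SE), with an adjusted p of 0.196 by its Wald test. Pgm2, a phosphoglucomutase, was at 43.8, 39.6 and 34.2 CPM in LER+LIG, against 26.9, 27.7 and 28.4 in LER and 35.5, 30.5 and 41.6 in NER. Its 3 LER libraries lay below all others, with a log2 fold change of -0.38 ± 0.20 for LER against NER. Among 5 genes of the pentose phosphate pathway, 4 were above 0 for LER+LIG against LER, with a median of 0.23, and all 5 were below 0 for LER against NER, with a median of -0.13. Rpe and Rpia, which interconvert pentose phosphates, had log2 fold changes of 0.74 ± 0.25 and 0.72 ± 0.26 for LER+LIG against LER. Rpe was at 87.7, 51.7 and 78.7 CPM in LER+LIG, against 41.8, 39.8 and 49.4 in LER and 61.0, 44.0 and 51.2 in NER. Its LER+LIG libraries lay above all LER libraries and overlapped those of NER. Of 15 genes of the citric acid cycle 12 were above 0, but the 2 with the smallest p were below. Citrate synthase (Cs) was at 119, 121 and 169 CPM in LER+LIG, against 225, 203 and 192 in LER and 189, 183 and 200.3 in NER, a log2 fold change of -0.60 ± 0.20 against LER. Dlst, a subunit of the oxoglutarate dehydrogenase complex, gave -0.41 ± 0.18.

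Mitophagy genes, the list closest to Bnip3, were above 0 in 8 of 8 for LER+LIG against LER, with a median log2 fold change of 0.56. They were so in 8 of 8 for LER+LIG against NER, with a median of 0.67. Of all genes, 54.9% and 53.7% were above 0 in these 2 comparisons, which share the LER+LIG libraries. An unadjusted p under 0.05 by edgeR was reached by 2 and 1 of the 8, against 12.5% and 5.44% of all genes. For LER against NER the mitophagy genes split 4 and 4, with a median of 0.02. Fundc1, a mitophagy receptor, was at 54.6, 41.0 and 52.0 CPM in LER+LIG, against 28.8, 28.1 and 31.8 in LER and 42.8, 26.2 and 25.6 in NER. Its LER+LIG libraries did not overlap LER, with a log2 fold change of 0.73 ± 0.25, but LER+LIG replicate 2 lay under NER replicate 1. Map1lc3b, a coat protein of autophagosomes, had a log2 fold change of 0.82 ± 0.33 against LER, and 0.33 without LER+LIG replicate 2, whose level of 322 CPM was the highest.

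HIF targets outside the 10 genes went both ways. Of 23 tested, 15 were above 0 for LER+LIG against LER, with a median of 0.42, and 9 for LER against NER, with a median of -0.17. Bnip3l, a close relative of Bnip3, was at 169, 242 and 183 CPM in LER+LIG, against 118, 119 and 161 in LER and 162, 136 and 131 in NER, a log2 fold change of 0.58 ± 0.22 against LER, and 0.39 without LER+LIG replicate 2. Vegfa, the growth factor for blood vessels, lay on the other side, at 94.0, 47.9 and 46.6 CPM in LER+LIG, against 154, 118 and 91.2 in LER and 92.3, 113 and 57.9 in NER, a log2 fold change of -0.95 ± 0.36 against LER. Ca9, a carbonic anhydrase, reached 43.7 CPM in NER replicate 3, and no other library had more than 9.67 CPM. Against NER, Edn1 and Hmox1 had the smallest p of this list, with log2 fold changes of 1.22 ± 0.48 and 1.47 ± 0.59, and were highest in LER+LIG replicate 2, at 38.7 and 149 CPM. Without that library the values were 0.35 for Edn1 and 0.59 for Hmox1.

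Among 13 genes of HIF subunits and oxygen sensing, 5 were above 0 for LER+LIG against LER, with a median of -0.17, and 8 for LER against NER, with a median of 0.07. Egln3, a prolyl hydroxylase that marks HIF for breakdown and is itself a HIF target, was at 14.4, 70.8 and 33.9 CPM in LER+LIG, against 12.0, 11.4 and 11.6 in LER and 12.7, 8.62 and 30.9 in NER. Its 3 highest libraries were again LER+LIG replicates 2 and 3 and NER replicate 3. Its log2 fold change was 1.77 ± 0.61 for LER+LIG against LER, with an adjusted p of 0.358 by edgeR's quasi-likelihood test, and 1.03 without LER+LIG replicate 2. Hif3a was at or below 2.09 CPM throughout. Egln1 gave 0.29 ± 0.26 for LER against NER, and Arnt2 was at 274 CPM in LER+LIG replicate 2 against 12.7 to 40.4 CPM in the other 8 libraries.

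The 9 tested glucose transporters had a median log2 fold change of 0.08 for LER+LIG against LER, with 5 above 0, and of -0.18 for LER against NER, with 2 above 0. The medians over all genes were 0.07 and -0.02. An unadjusted p under 0.05 was reached by 2 of the 9 for LER+LIG against LER, against 12.5% of all genes. Slc2a12, a transporter of the GLUT family, was at 21.1, 66.2 and 39.4 CPM in LER+LIG, against 85.8, 93.5 and 81.4 in LER and 110.5, 88.3 and 50.5 in NER, a log2 fold change of -1.04 ± 0.41 against LER without overlap. The sodium-glucose transporter gene Slc5a1 was at 0, 3.74 and 0.851 CPM in LER+LIG, at or below 0.0679 CPM in LER and at or below 1.96 CPM in NER. The 19 other tested glycolytic enzymes on the list had medians of 0.05 and -0.01 for the same comparisons. Aldoc, another aldolase, gave 1.27 ± 0.58 for LER+LIG against LER, and 0.34 without LER+LIG replicate 2. Pfkp gave -0.65 ± 0.28 for LER+LIG against NER, without overlap, and -0.43 without NER replicate 3.

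The 18 genes of lactate and pyruvate handling had medians of 0.07 for LER+LIG against LER and 0.03 for LER against NER. Pdp1, the phosphatase that undoes the action of Pdk1 on pyruvate dehydrogenase, was at 30.4, 31.8 and 34.1 CPM in LER+LIG, against 16.4, 18.4 and 23.5 in LER and 25.4, 19.5 and 24.3 in NER. All 3 of its LER+LIG libraries lay above the rest, and the log2 fold change was 0.73 ± 0.23 against LER and 0.48 ± 0.23 against NER (SE). The lactate exporter Slc16a3 was at 74.9 CPM in LER+LIG replicate 2, 84.3 CPM in NER replicate 3 and 13.9 CPM in LER+LIG replicate 3, against 2.42 to 9.17 CPM in the other 6. Of 4 tested genes of gluconeogenesis, Pck1 was at 75.9 CPM in LER replicate 1 and at or below 4.22 CPM elsewhere, and that library is the one with the highest sum of adipocyte markers. Their part in the Pck1 level was not tested.

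**Figure D5:**
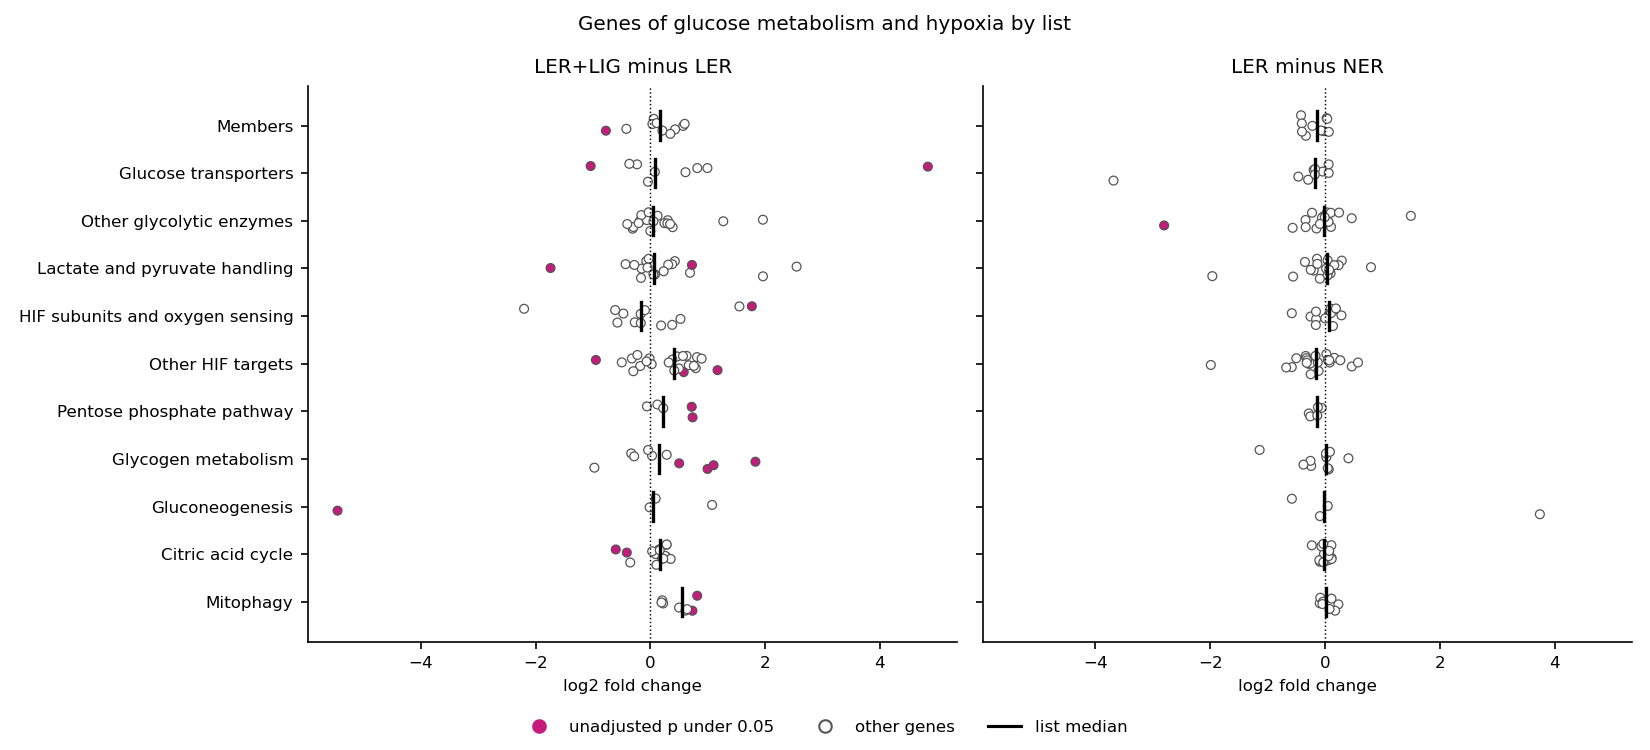
Log2 fold changes of the tested genes in each list for LER+LIG against LER (left) and LER against NER (right); each point is a gene, the bar is the list median and filled points had an unadjusted p under 0.05 by edgeR. Mitophagy lies wholly above 0 on the left, with a median of 0.56, and no gene in either panel passed the adjusted test.

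Over the 9 libraries, the genes whose log2 CPM followed that of Ldha most closely among 10052 genes with a mean of at least 10 CPM were Prxl2a, Cyp51 and Pdlim1, with Pearson's r of 0.980, 0.966 and 0.965. Those of Slc2a1 were Aacs, Eaf1 and Wdr1, at 0.930, 0.921 and 0.918. For Bnip3 they were LOC100910790, Phyh and Atp1b1, at 0.970, 0.963 and 0.949, and for Hif1a they were Nab1, AABR07026291.1 and Tm9sf2, at 0.939, 0.933 and 0.933. The points share libraries that stand apart along the first principal component, so these values only describe likeness in this set.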

How the data were processed

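Read counts and FPKM per gene were deposited by the authors in 1 table of 9 libraries, and the authors' deposited tables of 2 comparisons gave a log2 fold change and a p-value per gene. The aligner, counting software, genome build, strand setting and the authors' test were not given in the sources used here. FPKM equalled counts scaled by length and library size within rounding. Rows without a symbol (8, at most 0.0031% of counts) were left out.

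Counts were analysed with edgeR 4.0.16 in R 4.3.3: filterByExpr, TMM scaling (factors 0.867 to 1.05), glmQLFit with robust estimation over all 9 libraries and glmQLFTest, with Benjamini-Hochberg adjustment over 14229 genes and a threshold of 0.05. The fitting was tested on simulated counts. CPM values are TMM-scaled. DESeq2 1.42.0, other scalings and filters, fits of 2 groups, a replicate block and leaving out libraries were alternatives. Ratios used counts per length with 0.5 added to each count. Named list genes are the 2 with the smallest unadjusted p per list and comparison. The 10 genes, the lists and the marker genes were chosen with earlier results of these data known. Some genes of these pathways are not reported here and are in no list or share. Promoter windows are from RefSeq (GRCr8), which held none for Pgk1. Total counts were 13241537 to 15354085 per library, and intervals cover the spread between libraries.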

Additional observations from a re-analysis of the deposited data

How the results depend on the processing

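Hk1 kept its sign for LER+LIG against LER and against NER under every alternative run, at -0.912 to -0.694 and -0.94 to -0.603 when 1 library was left out. Genes called by edgeR numbered 0 in each comparison, against 349 by DESeq2 for LER+LIG against LER, 23 for LER+LIG against NER and 2 for LER against NER. For LER+LIG against LER, upper-quartile scaling, no filter, a threshold of 0.10 and leaving out NER replicate 3 or LER+LIG replicate 1 or 3 each gave 1 gene, and the range over single libraries left out was 0 to 1. Upper-quartile scaling turned the sign of Slc2a1 (-0.00241) and Pgk1 (-0.012) for LER+LIG against LER and of Pfkl (0.0125) for LER against NER, and no filter turned Pgk1 (-0.00167) and Pfkl (0.000719) in the same comparisons. Leaving out NER replicate 3 and LER+LIG replicates 2 and 3 together gave 3922 genes against LER, 2 of the 10 genes (Hk1 and Bnip3) among them, and 2730 against NER, and moved the median of all genes by -0.148 for LER+LIG against LER. That fit rests on 1 LER+LIG library, assumed to vary like the others, so no conclusion is drawn from these counts. With so many genes called against LER, the 2 of the 10 genes are not read as an excess. Leaving out those libraries turned the sign of Slc2a1 (-0.149), Hk2 (-0.425), Pdk1 (-0.222) and Hk3 (-0.335) for LER+LIG against LER. For LER+LIG against NER it turned Hk2 (-0.01), Slc2a13 (-0.0773) and Arnt2 (-1.5). For LER against NER it turned Slc2a1 (0.0381), Hk2 (0.415), Pfkl (0.389), Aldoa (0.155), Ldha (0.0421), Bnip3 (-0.158), Slc16a3 (1.06), Egln3 (0.126), Ca9 (0.794), Pygl (0.0817) and Fbp2 (0.00917). With 1 library left out at a time, values that changed sign for LER+LIG against LER spanned -0.416 to 0.224 (Pgk1) and -0.143 to 0.195 (Slc2a1). For LER+LIG against NER they spanned -0.0334 to 0.35 (Aldoa), -0.732 to 2.21 (Arnt2), -0.242 to 0.0848 (Hif1a), -0.168 to 0.966 (Hk2), -0.164 to 0.457 (Ldha), -0.239 to 0.0107 (Pdk1), -0.33 to 0.291 (Pgk1) and -0.442 to 0.0767 (Slc2a1). For LER against NER they spanned -0.234 to 0.155 (Aldoa), -0.158 to 0.213 (Bnip3), -2.52 to 0.791 (Ca9), -0.901 to 0.125 (Egln3), -0.95 to 0.00586 (Fbp2), -0.223 to 0.194 (Fundc1), -0.163 to 0.191 (Hk1), -0.739 to 0.414 (Hk2), -0.593 to 0.0419 (Ldha), -0.865 to 5.02 (Pck1), -0.321 to 0.389 (Pfkl), -0.0526 to 0.239 (Pgk1), -1.9 to 0.084 (Pygl), -2.51 to 1.06 (Slc16a3) and -0.499 to 0.0373 (Slc2a1). Differences in log2 ratio that changed sign spanned -0.675 to 0.196 for Hk2 to Hk1 and -1.36 to 0.125 for Ldha to Ldhb in LER against NER, -0.238 to 1.318 for Ldha to Ldhb and -0.42 to 0.633 for Slc2a1 to Slc2a3 in LER+LIG against LER, and -1.079 to 0.718 and -0.772 to 0.28 for the same 2 ratios in LER+LIG against NER. The replicate number as a block called 0 genes in each comparison and turned only Pfkl for LER against NER (0.00571). The labels do not say whether the numbers pair the libraries. In deviations from group means, same-numbered libraries correlated at -0.19 to 0.51 and 5 of 9 were closest to their own number. These values do not decide whether the libraries are paired. The cause of these shifts was not tested. Each of the 10 genes had at least 209 counts in every library, and the part of depth in the width of their intervals was not tested.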
